A study of Sus scrofa with 12 samples.

Results

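The genes that encode ribosomal proteins and translation factors were examined in pig mesenchymal stromal/stem cells (MSCs) and in the extracellular vesicles (EVs) that these cells released. Members were taken by gene symbol: cytosolic ribosomal proteins (symbols RPL or RPS with a number, and RPSA), mitochondrial ribosomal proteins (MRPL and MRPS), and translation initiation and elongation factors (EIF and EEF). S6 kinases and the Argonaute genes once called EIF2C were left out. This gave 144 genes among 13363 distinct symbols, 50 of the cytosolic ribosome, 48 of the mitochondrial ribosome and 46 translation factors. The choice used symbols and the number of reads, to pick 1 entry for each symbol, and no difference between EVs and MSCs.

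Cytosolic ribosomal proteins are built into a small and a large subunit, which join on an mRNA and translate it. Mitochondrial ribosomal proteins are encoded in the nucleus, made in the cytosol and imported to form the ribosome that translates the few proteins of the mitochondrial genome. Initiation factors bring the mRNA cap, the initiator tRNA and the small subunit together, and elongation factors deliver tRNAs and move the ribosome along. Most mRNAs of cytosolic ribosomal proteins and several of elongation factors share a terminal oligopyrimidine start, through which mTOR signalling controls their translation.

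Cells came from abdominal fat of 3 female domestic pigs aged 3 months, were grown with platelet lysate and were used at passage 3. EVs were collected by ultracentrifugation from the medium of the same pigs' cells, so that each pig gave 1 MSC and 1 EV mRNA library, numbered alike, and groups of n = 3. No treatment or genetic change is named for either group, and the comparison asks which mRNAs the vesicles carry relative to their parent cells. Small-RNA libraries of the same design were not used here.

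Reads on annotated entries numbered 11332330 to 12276855 in the MSC and 10429085 to 12151384 in the EV libraries, so that 3 reads, the limit that a count of 0 allows, stood for 0.244 to 0.288 counts per 1000000 reads (CPM). The MSC markers NT5E (900 to 1816 reads) and CD44 (3603 to 10023) and the vesicle marker CD63 (8359 to 19616) were read in all 6 libraries, ENG had 44 to 114 reads, and THY1 was at 0 in all. The vesicle markers ITGB1 (1 to 3 reads) and CD9 (4 to 7) were near 0 in MSCs and EVs alike, and entries that share their span limit what these 3 counts show. Of other cell types, ADIPOQ, KDR, VWF, PLIN1, PPBP and ITGA2B had at most 1 read in any library, TUBB1 had 1 to 4, PTPRC had 2 to 10, CD68 18 to 56 and GP9 9 to 33. CD14 had 416 to 771 reads, and PECAM1 had 20 to 78 in the EV and 111 to 215 in the MSC libraries. CDH5, FABP4 and PF4 had no entry and were not analysed here. The entries of VWF, PLIN1, PPBP, ITGA2B, TUBB1, ENG and PECAM1 share their span with another entry too, so that their low counts do not show that a cell type was absent. The part of these cell types in the results was not tested.

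Many of the most familiar genes of the translation machinery had no usable count. Of the 144 members, 36 were at 0 reads in all 6 libraries, 19 had between 1 and 60 reads in total, and 89 had more than 60. Those at 0 included EEF1A1, the factor that delivers tRNAs to the ribosome, EEF1B2, EIF4A1, the RNA helicase that unwinds mRNA for initiation, EIF3D, RPL3, RPL6, RPL13A, RPL14, RPS18 and RPS20. Among those with a few reads were RPL5 (3 reads) and RPL11 (12), which are known to bind MDM2 when ribosome assembly fails, and EIF2AK2 (7), the kinase that senses double-stranded RNA. Counts of 0 went with the annotation: all 36 members at 0 lay under another entry that covered at least 0.9 of their span, and none of the 73 members without such a cover was at 0.

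The same held less strictly for the whole table, in which 56.3% of 11155 covered entries and 26.3% of 18503 uncovered entries had 0 reads. For 14 of the 36 members at 0, the covering entry carried the same symbol, as when a gene is listed once by symbol and once by identifier. A read that fits both entries is dropped by the counting program when it is left to count each read once, and whether this was so here was not tested. The cytosolic ribosome was touched most, with 38 of 50 members covered, against 15 of 48 for the mitochondrial ribosome and 18 of 46 for the factors. A value of 0 therefore does not show that an mRNA was absent from cells or vesicles. RPS6, RPL22L1, EEF1A2, EIF2S1, EIF2AK4, EIF4B, EIF4EBP2 and EIF5A had no entry under their symbol and were not analysed here.

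**Figure D1:**
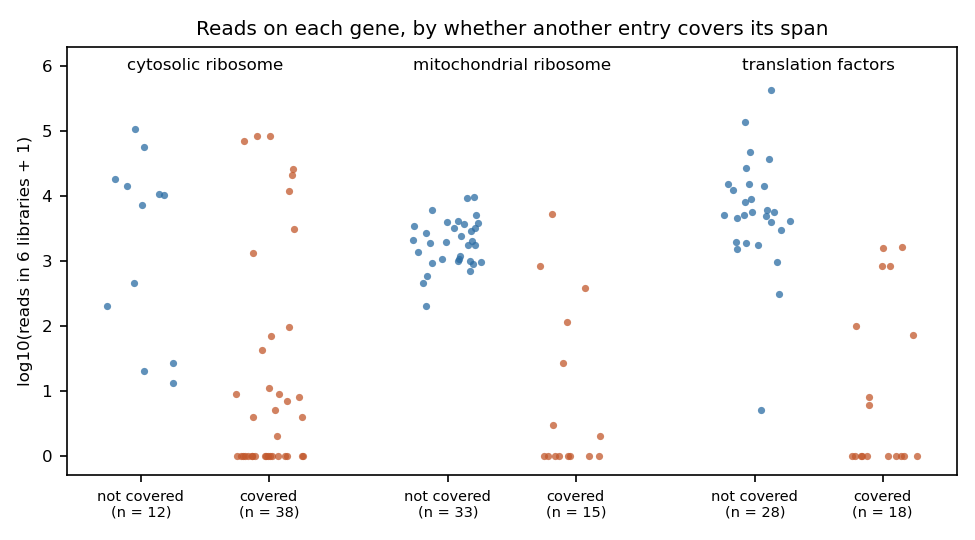
Each point is a gene, with log10 of its reads summed over the 6 libraries plus 1 on the vertical axis, split by class and by whether another entry covers at least 0.9 of its span. All 36 genes at 0 reads are covered, and the 73 genes that are not covered all have reads.

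The 89 members that passed edgeR's filter on low counts were 19 of 50 for the cytosolic ribosome, 37 of 48 for the mitochondrial ribosome and 33 of 46 for the factors. Of these, 20 were still covered by another entry (10, 4 and 6), and whether part of their reads was dropped was not tested. This applies to RPSA, RPL10A, RPS26, EIF4A2, EIF4G1, EIF4EBP1 and EIF6, covered on the same strand, and to RPL10, RPS3, RPS9 and EIF3J, covered mainly or only from the opposite strand. In addition, 5 of the cytosolic entries (RPSA, RPL10, RPL10L, RPL7 and RPL36AL) were as long as their span and so held no intron. Ribosomal protein genes have many near-identical copies of that kind, and reads of such copies cannot be told apart from those of the gene. The entry of RPSA lay on chromosome 6 from 113111743 to 113112754, and that of RPL10 on chromosome 15 from 81148830 to 81149208. That of RPL7 lay on chromosome 10 from 38814267 to 38814446. These are coordinates of the authors' table (the labels list the build susScr3). Each of these symbols had another entry, with a span longer than its length. For RPL10 it was 472 bases long, with read counts per library from 5310 to 18183. For RPSA it was 704 bases long, with counts from 115 to 433, and for RPL7 it was at 0. These entries had fewer reads in every library than the entries used, and were set aside.

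Per length, in reads per kilobase and 1000000 mapped reads (RPKM), the highest level was that of RPL10, a protein of the large subunit. It had 1215 ± 759 RPKM in MSCs and 520 ± 107 RPKM in EVs (SD, n = 3), on its short entry of 379 bases. The reads of the other RPL10 entry are not part of this level. EEF2, which moves the ribosome along the mRNA, followed at 667 ± 246 and 395 ± 48.7 RPKM. RPS9 stood at 618 ± 191 RPKM in MSCs and 319 ± 64.8 in EVs, and RPL4 at 331 ± 33.2 and 259 ± 37.8. The spreads of RPL10, EEF2 and RPS9 in MSCs overlapped, so that their order was not resolved.

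Among the factors, EIF1, which scans for the start codon, and EIF4G2, a cap-independent relative of the EIF4G scaffold, came after EEF2. EIF1 had 169 ± 46.2 RPKM in MSCs and 112 ± 7.67 in EVs, and EIF4G2 had 151 ± 64.5 and 199 ± 14.6. Mitochondrial ribosomal proteins were lower per length. The highest of them, MRPS6, reached 60.1 ± 43.3 RPKM in MSCs and 36.0 ± 9.78 in EVs, and the next, MRPL28, reached 34.8 ± 8.08 and 25.5 ± 5.25.

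The cytosolic ribosomal protein mRNAs were lower in EVs than in MSCs in nearly every case, although no gene passed the adjusted threshold. Of 19 tested, 18 had a negative log2 fold change (EV over MSC), against 50.9% of all 12392 entries tested, and the median was -1.01, against -0.02 for all entries. At an unadjusted p under 0.05, 10 of the 19 were lower (52.6%) and 0 higher, beside 7.93% of all entries lower and 8.03% higher. With a fold change over 2 in addition, 7 of the 19 were lower, beside 3.57% of all entries, and 0 higher, beside 5.55%. After Benjamini-Hochberg adjustment, edgeR's quasi-likelihood test called 0 of the 19, and 0 of all 12392 entries (lowest adjusted p 0.129). DESeq2 also called 0 of the 19, beside 3.83% of all entries, and edgeR with the pig as a block called 0, beside 1.1%. On the deposited RPKM, limma on log2(RPKM + 1) gave 9 cytosolic genes lower at an unadjusted p under 0.05, beside 5.79% of 18511 entries. That fit has no filter on low counts, so that these 9 are out of the 50 cytosolic members less the 18 at 0 reads, and not out of 19. Without the block, the p-values measure the spread between the libraries of 3 pigs within each group and leave out the pairing by pig. The fit with the pig as a block uses that pairing. Fewer vesicles that carry an mRNA, less of it in each vesicle and more of other RNA cannot be told apart in such bulk libraries. These libraries give shares of the RNA sequenced.

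The values below are CPM after edgeR's TMM scaling, in MSC replicates 1, 2 and 3 and then in EV replicates 1, 2 and 3. RPS3, at the mRNA entry of the small subunit and also known as a DNA repair factor, had 343, 797 and 447 CPM in MSCs and 239, 184 and 323 CPM in EVs. For RPS3 every EV library lay below every MSC library, but MSC replicate 2 stood far above the other cells. The log2 fold change of RPS3 was -1.09 (SE 0.39, adjusted p 0.270 from edgeR), and -0.67 without MSC replicate 2.

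RPSA, also known as the laminin receptor precursor, had 365, 554 and 355 CPM in MSCs and 188, 135 and 288 CPM in EVs. Its groups did not overlap, and its log2 fold change of -1.06 (SE 0.35) had the lowest p of the class (adjusted p 0.257 from edgeR). It remained at -0.82 without MSC replicate 2, so that this library mattered less for RPSA than for RPS3. RPS26 had 36.6, 103 and 53.3 CPM in MSCs and 31.1, 19.1 and 33.7 CPM in EVs, again without overlap (log2 fold change -1.20, SE 0.42, adjusted p 0.269 from edgeR). RPL38, a small protein of the large subunit linked to selective translation of Hox mRNAs, had 180, 434 and 233 CPM in MSCs and 149, 111 and 162 CPM in EVs (log2 fold change -1.01, SE 0.37, adjusted p 0.275 from edgeR).

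RPS9 had 985, 2032 and 1118 CPM in MSCs and 748, 495 and 835 CPM in EVs, again with all EV libraries below all MSC libraries. RPL10, at 844, 3279 and 1281 CPM in MSCs and 709, 530 and 984 CPM in EVs, was lower in the EVs of every pig, but EV replicate 3 lay above MSC replicate 1. RPS27L, a p53-induced relative of RPS27, differed less, with 154, 216 and 195 CPM in MSCs and 150, 108 and 109 CPM in EVs (log2 fold change -0.62, SE 0.25). RPL10A (log2 fold change -0.97, SE 0.36) and RPS21 (-1.31, SE 0.52, at most 7.18 CPM in any library) were also under an unadjusted p of 0.05. With the pig as a block in edgeR, the unadjusted p was 0.0693 for RPL10, 0.0534 for RPS9 and 0.0732 for RPS27L, and RPL10L came under the threshold, which left 8 of 19 lower, beside 8.67% of all entries.

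In all, 9 of the 19 genes had every EV library below every MSC library, beside 13.6% of all entries, and 14 were lower in the EVs of all 3 pigs, beside 24.2%. None was higher in all 3 pigs, and none had every EV library above every MSC library. The 10 small-subunit genes had a median of -1.13, with 7 lower at an unadjusted p under 0.05, and the 9 large-subunit genes a median of -0.43, with 3 lower. The difference between the subunits was not tested. Members at the ends of the range were chosen after their values were seen: RPS16 at -1.67 (SE 1.02) rested on at most 3.06 CPM, and RPL36AL at 0.17 (SE 0.29) was the only one above 0. The RPL36AL value came from an Ensembl entry that did not overlap the entry listed under that symbol, which was at 0 reads. Whether its reads are those of RPL36AL was not tested. RPL4 and RPL7 were close between the groups, with 1538, 2190 and 1623 CPM in MSCs and 1264, 1095 and 1792 CPM in EVs for RPL4 (log2 fold change -0.37, SE 0.33) and a log2 fold change of -0.18 (SE 0.28) for RPL7.

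**Figure D2:**
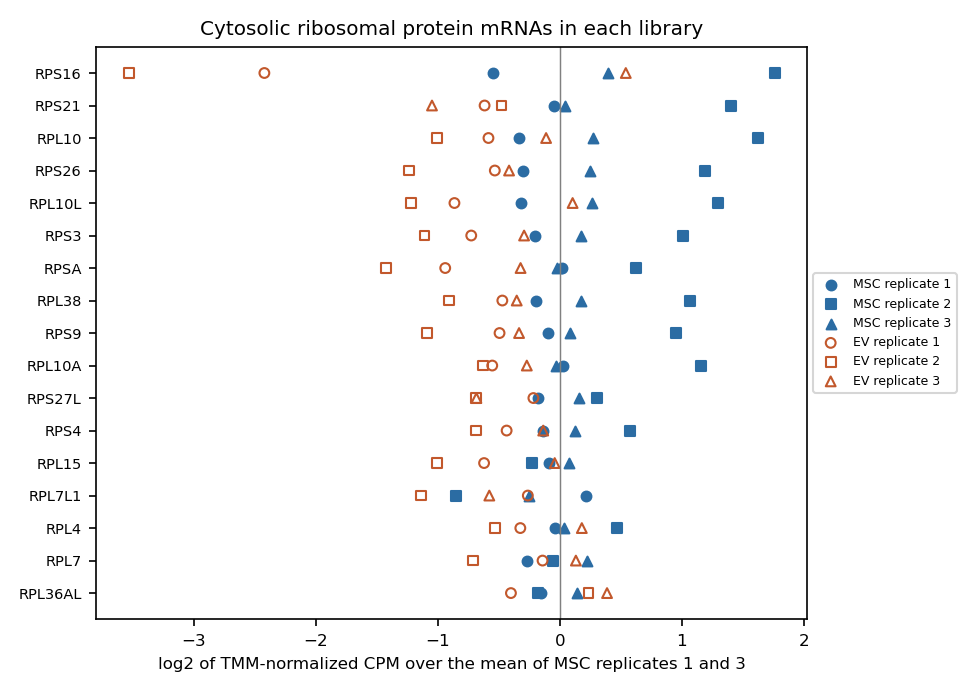
For 17 of the cytosolic ribosomal protein genes tested, points give log2 of the TMM-normalized CPM of each library over the mean of MSC replicates 1 and 3, with filled symbols for MSCs, open symbols for EVs and 1 shape for each pig. MSC replicate 2 lies to the right of 0 for 13 of them and EV replicate 2 to the left for 16.

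Pig 2 set much of this size. Against the mean of MSC replicates 1 and 3, MSC replicate 2 had a median log2 ratio of 1.01 over the 19 genes. It was the highest of all 6 libraries for 15 of them, and the share of all entries with this library highest was not computed. All 10 small-subunit genes were above that mean in MSC replicate 2, with a median of 1.10, whereas over all entries the median was -0.10 and 45.6% were above. EV replicates 1, 2 and 3 had medians of -0.53, -0.96 and -0.29 over the same 19 genes, so that the lowest values came from the vesicles of the pig whose cells were highest. Within pigs, the median log2 ratio of EV to MSC was -0.40 in pig 1, -1.97 in pig 2 and -0.32 in pig 3.

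Without MSC replicate 2, the median over the 19 genes was -0.56 and 18 were still negative (beside 49.9% of all entries), but 1 was lower at an unadjusted p under 0.05, RPL10A at -0.47, beside 7.67% of all entries. In that comparison 10 of the 19 had all EV libraries below MSC replicates 1 and 3, beside 20.2% of all entries. The count was 2 without EV replicate 1 (beside 6.78%) and 0 without EV replicate 2 (beside 2.93%), but 12, 10 and 11 without MSC replicate 1, MSC replicate 3 and EV replicate 3 (beside 7.82%, 5.79% and 6.63%). Without the libraries of pig 2, an alternative chosen after the data were seen, it was 0 (beside 4.79%) with a median of -0.37. Across these fits 17 of 19 to 19 of 20 genes stayed negative, while the size of the difference rested largely on pig 2 and the number of genes called fell without EV replicate 1 as well as without either library of pig 2.

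The mitochondrial ribosomal protein mRNAs were also mostly lower in EVs, by less. Of 37 tested, 33 had a negative log2 fold change and the median was -0.52, with pig medians of -0.13, -0.84 and -0.43. At an unadjusted p under 0.05, 6 were lower (16.2%, beside 7.93% of all entries) and 0 higher, none of them with a fold change over 2. Past the adjusted threshold, edgeR, edgeR with the pig as a block and DESeq2 each called 0 of 37 (lowest adjusted p 0.247 from edgeR). Every EV library lay below every MSC library for 19 of the 37, beside 13.6% of all entries, and above for 1, beside 14.3%. In all 3 pigs, 22 were lower, beside 24.2%, and 2 higher, beside 22.6%.

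The 6 genes were MRPL18, MRPL11, MRPL4, MRPL54, MRPS27 and MRPS24. MRPL18, whose product is also known to carry 5S rRNA into mitochondria, had 44.6, 64.5 and 41.2 CPM in MSCs and 31.6, 26.8 and 26.2 CPM in EVs (log2 fold change -0.83, SE 0.26, adjusted p 0.247 from edgeR). MRPL11 had 27.4, 38.7 and 29.6 CPM in MSCs and 19.9, 17.5 and 18.0 CPM in EVs (log2 fold change -0.79, SE 0.25, adjusted p 0.248 from edgeR). With the pig as a block in edgeR, MRPL54 and MRPS24 had unadjusted p of 0.0757 and 0.0810, and MRPS26 came under the threshold. In MRPL18 and MRPL11 the 3 EV libraries lay close together and below all cells.

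MRPL4, at 62.3, 90.7 and 69.9 CPM in MSCs and 48.7, 49.3 and 36.4 CPM in EVs, had a log2 fold change of -0.73 (SE 0.25). MRPS24 had 20.4, 22.2 and 20.4 CPM in MSCs and 14.7, 11.6 and 15.0 CPM in EVs, without the high value in MSC replicate 2 that most of these genes had. MRPS27, a pentatricopeptide repeat protein of the small subunit, ran against that pattern as well, with its lowest cell value in MSC replicate 2 (58.5, 39.9 and 51.9 CPM in MSCs and 39.2, 28.2 and 25.3 CPM in EVs). Its log2 fold change was -0.70 with all libraries and -0.84 without MSC replicate 2.

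Of the members highest in RPKM, MRPL28 (129, 225 and 134 CPM in MSCs, 122, 121 and 101 CPM in EVs) and MRPS26 (52.2, 110 and 52.6 CPM, 41.4, 48.3 and 36.9 CPM) had EV values below every cell value, MRPL28 by a small gap. MRPL38 had a log2 fold change of -0.60 (SE 0.29) with a slight overlap of the groups. MRPS6 did not separate them: its 57.5, 339 and 142 CPM in MSCs and 75.7, 83.7 and 151 CPM in EVs gave -0.80 (SE 0.60) with all libraries and 0.05 without MSC replicate 2. MRPS33 likewise went from -0.23 to 0.02. MRPS10, named after its values were seen, was the 1 member with every EV library above every MSC library, at 59.9, 56.6 and 59.0 CPM in MSCs and 84.2, 105 and 67.1 CPM in EVs (log2 fold change 0.55, SE 0.24, adjusted p 0.313 from edgeR).

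The 13 genes of the mitochondrial small subunit and the 24 of the large subunit had close medians, -0.52 and -0.50. MSC replicate 2 stood above the mean of the other cells for 26 of 37 genes, by a median of 0.27, and the EV medians against that mean were -0.17, -0.32 and -0.44. Without MSC replicate 2 the median was -0.32, with 31 of 37 negative and 5 lower at an unadjusted p under 0.05 (beside 7.67% of all entries), which were the genes above other than MRPL54. Without EV replicate 2 that count was 1 (beside 2.93%), and without pig 2 it was 1 (beside 4.79%).

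The translation factors showed no common direction. Of 33 tested, 15 had a negative log2 fold change and the median was 0.07, with pig medians of -0.18, 0.05 and -0.03. At an unadjusted p under 0.05, 4 were lower (12.1%, beside 7.93% of all entries), of which 2 by more than 2-fold, and 0 were higher. Past the adjusted threshold, edgeR with or without the pig as a block and DESeq2 called 0 of 33 (lowest adjusted p 0.257 from edgeR). With the pig as a block, 2 were lower at an unadjusted p under 0.05, beside 8.67% of all entries, since EIF2D and EIF6 had unadjusted p of 0.0751 and 0.0596 from edgeR. Without the block, the count stayed at 4 without MSC replicate 1 or MSC replicate 3 (beside 7.82% and 5.79% of all entries). It was 2 without MSC replicate 2, EV replicate 1 or EV replicate 3 (beside 7.67%, 6.78% and 6.63%). Without EV replicate 2 it was 0 (beside 2.93%). The share is close to the background, so that no direction is read for the class.

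Among the elongation factors, EEF1D, the exchange factor that reloads EEF1A with GTP, had 390, 870 and 411 CPM in MSCs and 247, 186 and 309 CPM in EVs. All EV libraries were below all cells, with MSC replicate 2 again far above the others. The log2 fold change of EEF1D was -1.17 (SE 0.39, adjusted p 0.257 from edgeR) and -0.69 without MSC replicate 2. EEF2 had 5771, 12653 and 6160 CPM in MSCs and 4035, 4071 and 6077 CPM in EVs. EV replicate 3 lay between the cells of pigs 1 and 3, so that the groups overlapped (log2 fold change -0.79, SE 0.45, and -0.33 without MSC replicate 2). EEF2K, the kinase that inhibits EEF2, was nearly level, with group means of 72.7 ± 7.06 and 70.3 ± 6.83 CPM (SD, n = 3) and a log2 fold change of -0.05 (SE 0.21).

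The eIF2 branch brings the initiator tRNA, and its exchange factor eIF2B is the target of the integrated stress response. EIF2B2, a subunit of eIF2B, had 61.4, 101 and 66.0 CPM in MSCs and 45.8, 39.6 and 49.4 CPM in EVs (log2 fold change -0.76, SE 0.26, adjusted p 0.265 from edgeR). EIF2D, which can place initiator tRNA without eIF2, had 75.1, 103 and 59.1 CPM in MSCs and 51.2, 52.6 and 51.1 CPM in EVs (log2 fold change -0.61, SE 0.26, adjusted p 0.304 from edgeR). The EV libraries of EIF2B2 and EIF2D lay below all cells. Over 7 genes, which were EIF2S2, EIF2B2, EIF2B3, EIF2B4, EIF2B5 and the separate factors EIF2A and EIF2D, the median was -0.18.

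EIF2AK3, the kinase PERK that phosphorylates eIF2 under stress of the endoplasmic reticulum, ran the other way, with 155, 123 and 169 CPM in MSCs and 200, 203 and 223 CPM in EVs. All EV libraries lay above all cells, the log2 fold change was 0.49 (SE 0.23, adjusted p 0.330 from edgeR), and it was 0.37 without MSC replicate 2. EIF3J and EIF4A2 were the other factors with every EV library above every MSC library, a total of 3 of 33, beside 14.3% of all entries. Of these, EIF3J, named after its values were seen, had the highest log2 fold change of the class at 0.51 (SE 0.31). EIF4A2, the helicase paralog of EIF4A1, had 10.1, 10.1 and 11.9 CPM in MSCs and 14.9, 12.7 and 12.1 CPM in EVs. In the opposite direction, 8 of 33 had every EV library below every MSC library, beside 13.6%.

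Of the eIF3 scaffold, which holds the small subunit during initiation, 6 genes were tested, with a median of 0.07. EIF3A (0.08, SE 0.29), EIF3E (0.19, SE 0.26) and EIF3H (-0.37, SE 0.30) had log2 fold changes less than 2 SE from 0. EIF3G, named after its values were seen, was lower in all 3 pigs at -0.83 (SE 0.40, adjusted p 0.341 from edgeR), and at -0.32 without MSC replicate 2. EIF1, at 637, 1212 and 690 CPM in MSCs and 538, 468 and 627 CPM in EVs, lay below all cells in EVs by a small gap. EIF6, which keeps the large subunit from joining too early, had the lowest log2 fold change of the class, -1.24 (SE 0.50, adjusted p 0.294 from edgeR), but on 1.70, 2.58 and 1.78 CPM in MSCs and 1.18, 0.469 and 0.910 CPM in EVs.

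In several genes of the eIF4 group, which acts at the cap, and in EIF5B, which joins the subunits, MSC replicate 2 deviated in the sense opposite to the ribosomal proteins. EIF4G2 had 2121, 1000 and 1925 CPM in MSCs and 2119, 2246 and 2370 CPM in EVs. EIF5B had 142, 48.0 and 117 CPM in MSCs and 121, 127 and 134 CPM in EVs. EIF4E, the protein that binds the cap, had 85.7, 50.5 and 96.5 CPM in MSCs and 83.2, 83.4 and 78.3 CPM in EVs. In each of these genes MSC replicate 2 was the lowest of the 6 libraries, and the EV libraries were nearer to the other cells than it was.

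Their log2 fold changes were 0.42 (SE 0.36) for EIF4G2, 0.32 (SE 0.38) for EIF5B and 0.07 (SE 0.28) for EIF4E, and without MSC replicate 2 they were 0.15, -0.02 and -0.16. The scaffold EIF4G1 followed, with 0.19 (SE 0.33) and -0.03 without MSC replicate 2. EIF4EBP1, the inhibitor of EIF4E that mTOR switches off, was highest in MSC replicate 2, with 18.3, 56.4 and 17.2 CPM in MSCs and 13.6, 13.4 and 20.2 CPM in EVs (log2 fold change -0.96, SE 0.50, and -0.18 without MSC replicate 2), as was EIF4A3 on at most 2.30 CPM. Over the 9 genes of the eIF4 group, MSC replicate 2 had a median of -0.81 against the other cells, while the EV medians were 0.07, 0.05 and -0.09.

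Over all 33 factors, MSC replicate 2 was the highest of the 6 libraries for 12 and the lowest for 14, which left a median of -0.11 against the other cells. For the cytosolic ribosome it was the highest for 15 of 19 and the lowest for 0. For the mitochondrial ribosome it was the highest for 23 of 37 and the lowest for 5. The shares of all entries with MSC replicate 2 highest or lowest were not computed, so that nothing particular to a class is read from these counts. Without this library 24 of the 33 factors were negative, the median was -0.08, and 9 had all EV libraries below MSC replicates 1 and 3, beside 20.2% of all entries.

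**Figure D3:**
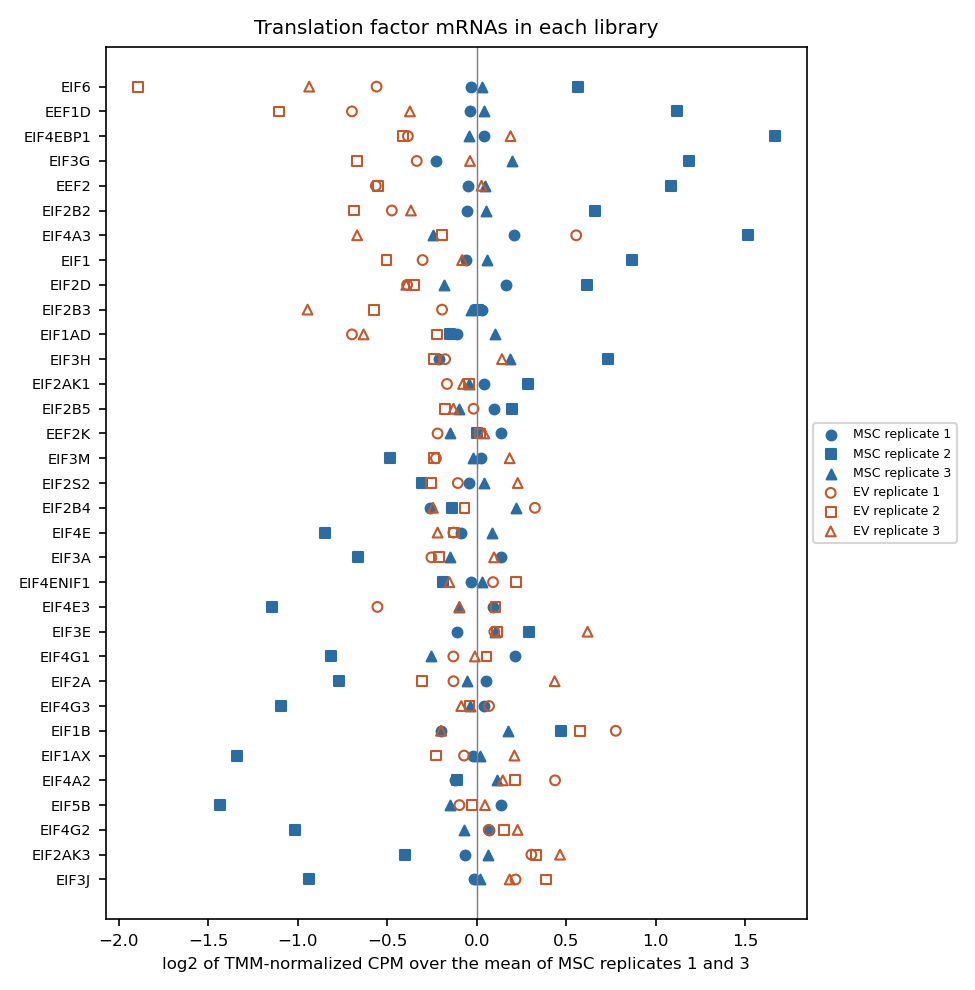
For each of the 33 translation factor genes tested, points give log2 of the TMM-normalized CPM of each library over the mean of MSC replicates 1 and 3, with filled symbols for MSCs, open symbols for EVs and 1 shape for each pig. MSC replicate 2 is the highest of the 6 libraries for 12 genes and the lowest for 14.

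**Figure D4:**
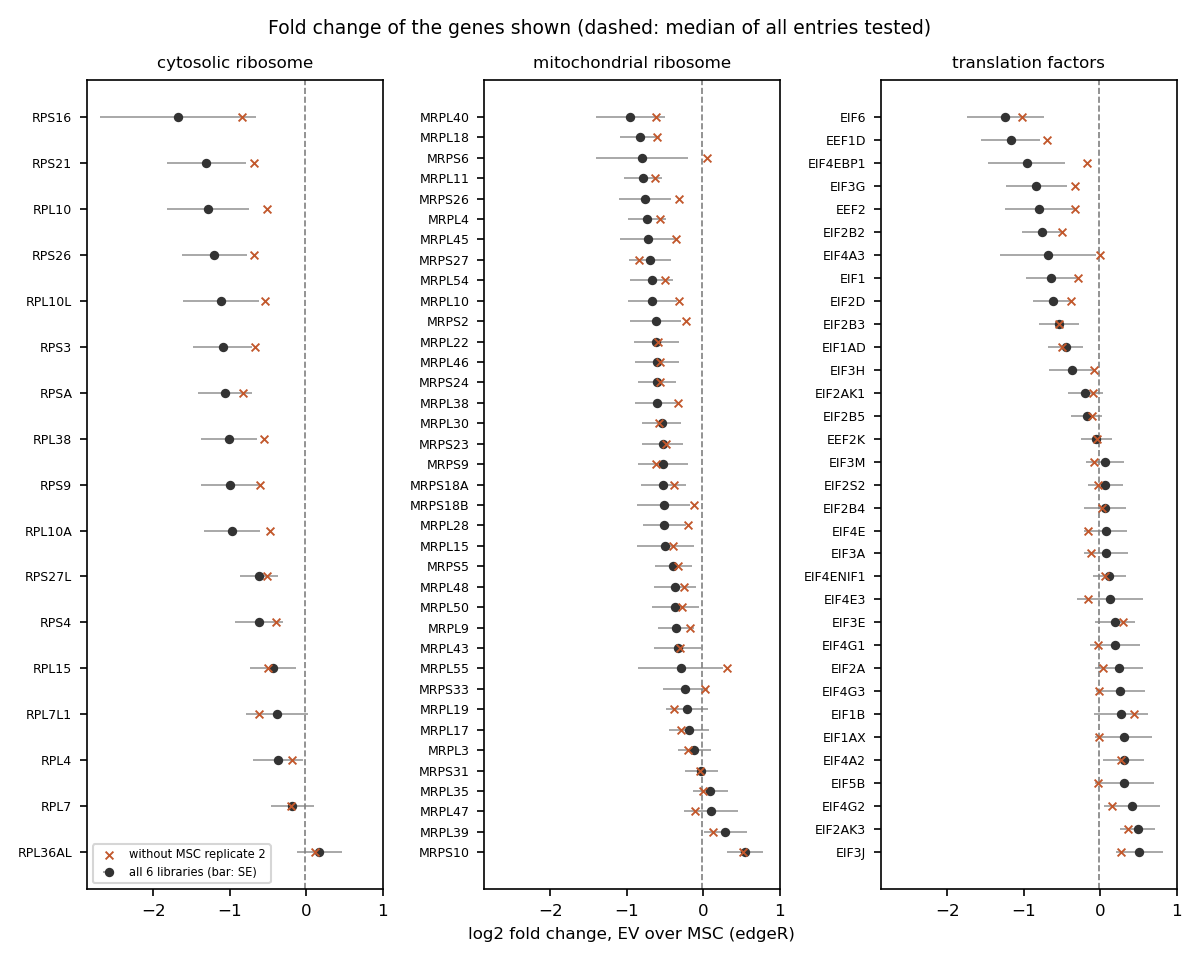
Circles give the log2 fold change of EV over MSC from edgeR for 87 of the 89 genes tested, with bars of 1 SE, and crosses give the value without MSC replicate 2. The class medians over all 89 are -1.01, -0.52 and 0.07 with all 6 libraries, and -0.56, -0.32 and -0.08 without that library.

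As a share of all reads on annotated entries, the 50 cytosolic ribosomal protein genes took 0.778%, 1.24% and 0.880% in MSC replicates 1, 2 and 3 and 0.627%, 0.457% and 0.607% in EV replicates 1, 2 and 3. The EV shares were all below the MSC shares, with means of 0.564 ± 0.0927% and 0.967 ± 0.244% (SD, n = 3) and a ratio of 0.583. The mitochondrial ribosome took 0.142%, 0.166% and 0.147% in MSCs and 0.142%, 0.117% and 0.0932% in EVs, with EV replicate 1 level with its own cells (ratio of means 0.774).

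The factors took 1.27%, 1.53% and 1.22% of reads in MSCs and 1.06%, 0.984% and 1.04% in EVs, again without overlap (ratio of means 0.768). A single gene made up much of this. EEF2 alone took 0.634%, 1.08% and 0.641% in MSCs and 0.458%, 0.429% and 0.517% in EVs, and in MSC replicate 2 it was among the 10 genes with the most reads. The other factors together had means of 0.554 ± 0.0928% in MSCs and 0.559 ± 0.0414% in EVs, a ratio of 1.01. With 36 members at 0, these shares describe the entries that were counted and not the classes as a whole.

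**Figure D5:**
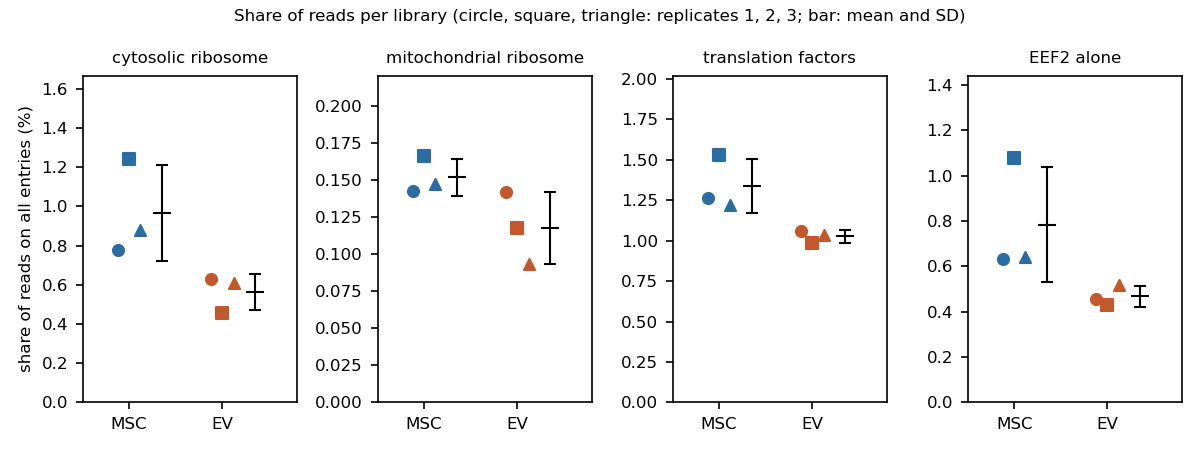
Share of reads per library (%, vertical axis from 0) for the 3 classes and for EEF2 alone, with 1 shape for each pig and the mean and SD beside the points. The EV points lie below the MSC points for the cytosolic ribosome, the factors and EEF2, and meet them for the mitochondrial ribosome.

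Transcript length ran along with the classes. The median length of the tested entries was 827 bases for the cytosolic ribosome, 1335 for the mitochondrial ribosome, 2074 for the factors and 2020 for all entries tested. Across the 89 members, the log2 fold change and log2 length had a Pearson r of 0.470 and a Spearman rho of 0.480, against 0.104 and 0.150 across all 12392 entries. These are correlations across genes that share the same 6 libraries, and genes are not independent replicates. With the trend of length over all entries removed, the class medians were -0.89, -0.46 and -0.05.

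Genes of the same pathways outside these symbols gave few calls, to be read beside the 7.93% of all entries lower and 8.03% higher at an unadjusted p under 0.05, and none passed the adjusted threshold in edgeR's test. Among ribosomal proteins outside the symbol pattern, only FAU and GNB2L1 (RACK1) could be tested, with log2 fold changes of -0.14 (SE 0.29) and -0.79 (SE 0.37). Of 8 genes of cap and poly(A) control and of the oligopyrimidine class, 1 was lower at an unadjusted p under 0.05 and 1 higher. The lower gene was PABPC4, a poly(A)-binding protein, at -0.90 (SE 0.27), and the higher was PAIP2, an inhibitor of poly(A)-binding proteins, at 0.57 (SE 0.24). Of the 5 termination and recycling factors, 0 were lower and 0 higher, with a median of 0.24.

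Among 7 mitochondrial translation factors and associated proteins, 1 was lower and 0 higher, with a median of -0.38. That gene was TUFM, the mitochondrial elongation factor Tu, with reads of 2155, 2354 and 1886 in the cells and 1518, 1234 and 984 in the vesicles (log2 fold change -0.77, SE 0.25, adjusted p 0.251 from edgeR). Of 22 ribosome biogenesis genes, 2 were lower and 0 higher, a share near that of all entries, with a median of -0.15. BYSL, which acts in the maturation of the small subunit, stood apart with reads of 1541, 1899 and 1683 in the cells and 471, 287 and 417 in the vesicles, a log2 fold change of -2.09 (SE 0.32). Its adjusted p was 0.161 from edgeR, 0.0325 from edgeR with the pig as a block and 9.81e-06 from DESeq2. The other was FBL, the methyltransferase fibrillarin, at -0.80 (SE 0.24). Of 30 aminoacyl-tRNA synthetases, which charge tRNAs with amino acids, KARS1 and MARS1 were lower at an unadjusted p under 0.05, and the median was -0.16.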

How the data were processed

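The authors aligned mRNA reads with TopHat and counted them on genes with featureCounts (the labels also name HTSeq and the build susScr3), and deposited raw counts for 29661 entries without normalization. Beside them the authors deposited RPKM, reads per kilobase of entry length per 1000000 mapped reads. Of the entries, 3 were shifted by a column and left out, and 1170 on sequences named X, Y or MT were at 0. Symbols came from the table (4336 entries) or from the Ensembl identifier (11804 of 25322), and the entry with the most reads stood for a symbol. A RefSeq table held 222 symbols of the pattern, of which 143 had an entry.

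EVs were compared with MSCs in edgeR 4.0.16 (R 4.3.3; TMM, filterByExpr, quasi-likelihood test, Benjamini-Hochberg adjustment over 12392 entries). RPKM was used for levels between genes and, as log2(RPKM + 1) or log2(RPKM + 0.1), in limma 3.58.1. Other alternatives were further scalings, no filter, DESeq2 1.42.0, the pig as a replicate block, each library left out, a length trend removed, and summed or uncovered entries. Fits were tested on simulated data.

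The pig label pairs the libraries: deviations from the group means correlated at 0.251, 0.384 and 0.408 for the same pig and at -0.364 to -0.038 for different pigs. Deviations within a group sum to 0, so that positive values for the same pig draw those for different pigs below 0. The negative values are therefore not separate evidence of pairing. Members, lists, named genes and tests were chosen with earlier results of these data known. Named genes were a list of well-known factors, the 5 highest in RPKM of each class, and up to 5 of each class and direction with the lowest unadjusted p under 0.05 that differed alike in all 3 pigs. Each count of 0 carries a limit of 3 reads, which covers counting error only. No sequences were used here. A few genes of the tests are not reported here by name.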

Additional observations from a re-analysis of the deposited data

How the results depend on the processing

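No member passed an adjusted p of 0.05 in any fit, and the medians of the cytosolic and mitochondrial ribosome stayed negative in all fits run. With the pig as a replicate block, 8 cytosolic, 5 mitochondrial and 2 factor genes were lower at an unadjusted p under 0.05, with medians of -0.94, -0.49 and 0.06, and no member passed the adjusted threshold. Under the block RPL10L and MRPS26 came under an unadjusted p of 0.05, and RPL10, RPS9, RPS27L, MRPL54, MRPS24, EIF2D and EIF6 no longer did. Leaving out each library in turn gave 0 to 12 cytosolic, 1 to 7 mitochondrial and 0 to 4 factor genes lower, 0 to 1 mitochondrial genes higher, and a factor median of -0.085 to 0.12 (-0.08 without MSC replicate 2). Without pig 2, added after the data were seen, these counts were 0, 1 and 1. Of the 19 cytosolic genes tested, 10 were covered. Among the uncovered ones, 4 were lower in the fit to all 6 libraries, beside 7.93% of all entries tested, covered or not. Library totals alone left 2 mitochondrial and 2 factor genes lower, DESeq2 left 2 factor genes, and upper-quartile scaling gave 1 mitochondrial gene higher. The shares of all entries called at an unadjusted p in these fits are not given here, so that nothing is read about the classes from these counts. Without the 10 genes with the most reads in each library, the EV share of factor reads was 1.13 times that of MSCs, since EEF2 is among these 10 in MSC replicate 2. Limma on log2(RPKM + 1), which includes members with few reads and understates low genes, left 9, 7 and 4 genes lower, with medians of -0.22, -0.29 and 0.05. These are out of the 50, 48 and 46 members of the classes less the 18, 8 and 10 at 0 reads, beside 5.79% of 18511 entries.

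Of 37 named genes tested, 9 changed sign in some fit. Leaving out each library in turn moved EEF2K from -0.12 to 0.031, EIF3A from -0.11 to 0.27, EIF4E from -0.16 to 0.255, EIF4G1 from -0.027 to 0.47, EIF5B from -0.0235 to 0.63, RPL7 from -0.38 to 0.032, MRPS6 from -1.22 to 0.050 and MRPS33 from -0.37 to 0.025. For EIF3A, EIF4E, EIF4G1, EIF5B, MRPS6 and MRPS33 the sign turned without MSC replicate 2. Without pig 2, EIF3A was at -0.030, EIF4E at -0.14, EIF4G1 at -0.033, RPL7 at 0.040, MRPS6 at 0.22, MRPS33 at 0.036 and EIF3H at 0.029. With the length trend removed, EIF3A was at -0.13, EIF4E at -0.052 and EIF4G1 at -0.031, and with the replicate block in addition at -0.13, -0.027 and -0.0035. The cause of these changes was not tested. Depth limits genes such as RPS16 and EIF6, which stayed under 4 CPM in every library.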
